A study of Mus musculus with 4 samples.

Results

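The genes described here encode RNA polymerase II (Pol II) and the factors that pause, release and carry it along a gene. They were taken by name from a list of 42 genes in 8 groups: the Pol II subunits, the elongation kinase P-TEFb with its inhibitors, the other kinases of the Pol II tail, the pausing factors NELF and DSIF, the PAF complex, the super elongation complex, the histone chaperones FACT and SPT6, and TFIIS. The list is 42 of the 36918 genes counted, and 41 of its members were among the 14361 genes with enough counts to be tested.

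Pol II starts transcription at the promoter with the help of general initiation factors, and TFIIH, through CDK7, phosphorylates its C-terminal tail. NELF and DSIF then hold the polymerase shortly after the start, until P-TEFb (CDK9 with cyclin T1 or T2) phosphorylates them and the tail. P-TEFb is kept inactive by HEXIM proteins and the LARP7-bound 7SK RNA, is brought to genes by the super elongation complex, and the released polymerase travels with PAF, SPT6 and FACT through nucleosomes.

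RNA bound to chromatin (ChAR-seq, which enriches nascent transcripts) was measured in mouse embryonic stem cells in which both Zbtb21 alleles carry a degron and GFP tag in a line with the OsTIR1 auxin receptor, derived as a CRISPR knock-in. Degron cells were given 1 μg/ml doxycycline for 24 h and then 500 μM indole acetic acid (IAA, an auxin) for 6 h to deplete ZBTB21, a zinc finger transcription factor. The untreated group is not described further, and it is not stated if it had doxycycline, so the effects of the added compounds and of ZBTB21 loss cannot be told apart. Each group had 2 libraries, with totals between 4262382 and 6479842 counts. Separate cultures are not stated, so the spread between samples that the p-values measure may be technical. Values are CPM (counts scaled to a common library total), and changes are log2 fold changes of degron over untreated from edgeR, relative to the typical gene, since no spike-in scaling was used.

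The embryonic stem cell label was checked on markers. Summed over 6 stem cell markers, the level was 2125 and 2142 CPM untreated and 2720 and 2682 CPM in the degron group. Of the 6, 5 (Pou5f1, Nanog, Klf4, Esrrb and Tfcp2l1) were called higher, beside 20.3% of all tested genes. Zfp42 lay lower, with 429 and 470 CPM untreated and 418 and 420 CPM in the degron group (log2 fold change -0.10, edgeR adjusted p = 0.103). With the length-adjusted scaling described below Zfp42 was called lower (-0.22, edgeR adjusted p = 0.00117), while the other 5 stayed higher. Over 18 markers of endoderm, trophoblast, mesoderm, nerve cells and fibroblasts the sum lay between 48.4 and 65.6 CPM. Of these, 6 were tested, and Gata3 rose while Gata6 and Pax6 fell. Mesp1, Sox1 and Neurod1 had no count (Sox1 and Neurod1 lie within other genes on their strand). The calls of Gata3, Gata6 and Pax6 lay near the threshold (edgeR adjusted p of 0.0451, 0.0385 and 0.0448). Gata6 had counts of 11 and 13 untreated and 6 and 7 in the degron group, and Pax6 had 21 and 12, then 10 and 11. With length-adjusted scaling neither fall passed (edgeR adjusted p of 0.0600 and 0.0625). Gata3 was then still called higher (0.43, edgeR adjusted p = 0.0396), and the fibroblast marker Thy1 was called lower (-0.85, edgeR adjusted p = 0.0290). With a library left out log2 fold changes were 0.25 to 0.50 for Gata3, -1.53 to -0.90 for Gata6 and -1.26 to -0.62 for Pax6. The part of these shifts in the results below was not tested, and fewer cells of a type and less RNA per cell cannot be told apart in bulk samples. Zbtb21 itself had counts of 2 and 0 untreated and 0 and 0 after treatment. It is covered over 99.9% of its length by C2cd2 on the same strand, and a degron removes protein, so the labels cannot be checked on this RNA.

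Of the 41 tested members, 19 were higher and 6 lower in the degron libraries at an edgeR adjusted p of 0.05, and 16 did not pass. Over all tested genes 20.3% were higher and 19.8% lower (40.2% in either direction). Of the members 46.3% were thus higher and 14.6% lower, with a median log2 fold change of 0.25 against -0.00075 for all tested genes. The members were chosen with earlier results of these data known, so this comparison is a description only. With a length-adjusted scaling, which takes a smooth trend on gene length over all genes out of each library, 24.4% of members were higher and 2.44% lower, against 17.9% and 9.89% of all genes, so that the gap to the background in the higher direction was much smaller. Among genes with a mean of at least 50 counts, 18 of 38 members were higher and 6 lower, against 26.5% and 23.9% of 10271 genes. In 36 of 41 members the 2 groups of libraries did not overlap, with 25 on the higher and 11 on the lower side, while 34.4% and 34.6% of all tested genes lay apart in these directions. The members together took 0.423% and 0.427% of all counts untreated and 0.448% and 0.449% in the degron libraries. The Wilson intervals at 95% (0.417 to 0.429% and 0.421 to 0.433%, then 0.443 to 0.453% and 0.443 to 0.455%) of the groups do not overlap, and they cover counting error only. The 19 increases ran from 0.21 (Supt5) to 0.95 (Polr2h) on the log2 scale. As the plot of each member's change shows, 8 were among the 13 Pol II subunits and 5 among the 6 genes of NELF and DSIF. With length-adjusted scaling 4 and 2 genes of these groups were higher.

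**Figure D1:**
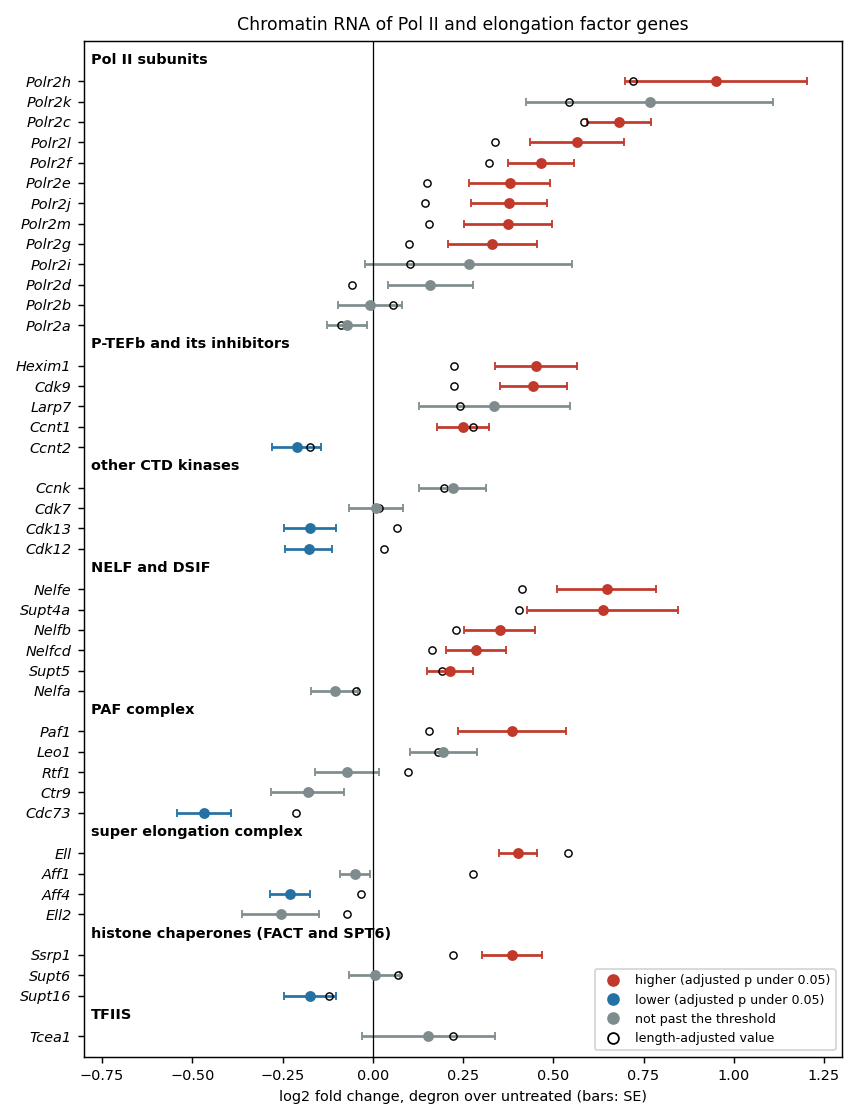
Log2 fold change of degron over untreated (horizontal axis) for the 41 tested members, ordered by role, with bars of 1 SE from edgeR over 2 libraries a group. Filled points are coloured by the call and open circles give the length-adjusted value, which for Ell and Aff1 lies above the unadjusted one and for most Pol II subunits below it.

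RefSeq promoter windows (build GRCm38.p6, 250 bases before to 50 after a start) were found for 35 members, in 39 windows, and not for Polr2d, Polr2g, Polr2k, Nelfcd, Nelfe, Ctr9 and Tcea1. The 39 windows had a median GC content of 63.0% and a CpG observed over expected ratio of 0.93. Over 13568 windows of tested genes these were 60.7% and 0.74, and over all 32851 windows 52.7% and 0.38. The GC box GGGCGG, searched like the other motifs on both strands, stood in 84.6% of member windows, in 61.4% of windows of tested genes and in 35.7% of all windows. The ETS core CCGGAA stood in 35.9%, 26.1% and 14.9%, the CCAAT box CCAAT in 30.8%, 37.5% and 37.4%, and TATAAA in 7.69%, 6.85% and 13.6%. The YY1 motif AAGATGGC was in 7.69%, 4.17% and 2.75%. By call, a GC box stood in a window of 14 of 16 higher members, 5 of 6 lower ones and 11 of 12 that did not pass, and an ETS core in 8 of 16, 3 of 6 and 3 of 12. These matches describe letters, not bound sites.

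The windows of 5 members are given so that genes that moved apart can be read side by side: Polr2c, Polr2f and Ell, which rose, Cdc73, which fell, and Polr2a, which did not pass. Each runs 5′ to 3′ on the strand of its gene, and capitals mark the motifs just listed. Polr2a (chr11:69758584-69758883, minus strand) holds 3 GC boxes and a TATAAA that starts 33 bases before the start, Polr2c (chr8:94857200-94857499, plus strand) holds 2 CCAAT, 2 ETS cores and a TATAAA but no GC box, and Polr2f (chr15:79141075-79141374, plus strand) holds 1 ETS core. Ell (chr8:70539425-70539724, plus strand) holds 4 GC boxes, of which 2 overlap by 1 base, and a YY1 motif 29 bases after the start, and Cdc73 (chr1:143702844-143703143, minus strand) holds 1 GC box.
Polr2a: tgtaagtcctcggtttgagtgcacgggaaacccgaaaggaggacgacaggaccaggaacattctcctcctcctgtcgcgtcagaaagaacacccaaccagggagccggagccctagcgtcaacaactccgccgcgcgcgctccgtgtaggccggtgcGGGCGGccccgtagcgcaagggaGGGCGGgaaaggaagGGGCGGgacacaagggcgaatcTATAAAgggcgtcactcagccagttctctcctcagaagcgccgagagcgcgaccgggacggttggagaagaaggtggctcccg
Polr2c: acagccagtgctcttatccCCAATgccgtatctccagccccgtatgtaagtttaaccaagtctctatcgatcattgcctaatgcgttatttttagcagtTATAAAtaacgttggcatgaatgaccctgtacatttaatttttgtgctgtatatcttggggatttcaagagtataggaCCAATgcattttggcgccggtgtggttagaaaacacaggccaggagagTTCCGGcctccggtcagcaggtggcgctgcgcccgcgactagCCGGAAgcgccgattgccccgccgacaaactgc
Polr2f: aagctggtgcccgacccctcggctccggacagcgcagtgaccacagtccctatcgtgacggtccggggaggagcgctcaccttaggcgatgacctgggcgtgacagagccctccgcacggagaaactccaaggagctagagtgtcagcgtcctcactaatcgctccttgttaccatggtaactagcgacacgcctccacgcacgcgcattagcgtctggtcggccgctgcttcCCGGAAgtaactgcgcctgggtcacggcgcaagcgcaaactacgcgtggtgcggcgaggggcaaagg
Ell: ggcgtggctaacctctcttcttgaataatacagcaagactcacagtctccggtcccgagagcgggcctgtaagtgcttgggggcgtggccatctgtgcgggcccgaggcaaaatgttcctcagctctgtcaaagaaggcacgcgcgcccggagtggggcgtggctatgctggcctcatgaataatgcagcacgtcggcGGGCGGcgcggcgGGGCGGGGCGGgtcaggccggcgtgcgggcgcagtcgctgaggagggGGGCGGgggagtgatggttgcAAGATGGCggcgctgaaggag
Cdc73: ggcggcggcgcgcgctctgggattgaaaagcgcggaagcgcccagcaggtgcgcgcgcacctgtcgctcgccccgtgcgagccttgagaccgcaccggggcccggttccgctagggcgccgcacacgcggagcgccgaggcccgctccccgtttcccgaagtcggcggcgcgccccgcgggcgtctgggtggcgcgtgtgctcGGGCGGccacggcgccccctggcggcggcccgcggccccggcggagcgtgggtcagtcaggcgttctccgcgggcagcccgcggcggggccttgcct

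Among the 13 Pol II subunit genes, 8 rose and 0 fell, beside 20.3% and 19.8% of all tested genes. Their median length was 6.32 kb, and of all tested genes under 10 kb 29.0% rose and 2.71% fell. The genes of both large catalytic subunits did not pass the test. Polr2a, whose product holds the active site and the tail, had 262 and 268 CPM untreated and 247 and 257 CPM in the degron libraries. Its log2 fold change was -0.072 ± 0.056 (SE, adjusted p = 0.314 in edgeR), the degron libraries lying just below the untreated ones. Polr2b, whose product forms the catalytic cleft with that of Polr2a, had 68.4 and 72.0 CPM untreated and 73.5 and 65.1 CPM in the degron libraries, with a log2 fold change of -0.0076 ± 0.090 (SE, adjusted p = 0.956 in edgeR). The libraries of the groups overlapped, and the sign of this value turned under several settings.

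Most of the smaller subunits were higher. Polr2c, an assembly subunit that pairs with the product of Polr2j, had 54.4 and 53.1 CPM untreated and 85.8 and 87.1 CPM in the degron libraries, an increase of 0.68 ± 0.089 (SE, adjusted p = 3.59e-08 in edgeR). Both degron libraries stood far above both untreated ones. Polr2c lies at 94857450 to 94873535 on chromosome 8 in mm10, and 60.4% of it is covered on the opposite strand by Dok4, whose own log2 fold change was 0.32 (edgeR adjusted p = 0.272). Whether the counting used strand is not stated, so reads of the pair may not be fully separated. Polr2j rose by 0.38 ± 0.11 (SE, adjusted p = 0.00396 in edgeR), from 38.2 and 38.8 CPM to 50.2 and 49.8 CPM, and 13.9% of it is covered on the opposite strand by other genes, mainly Lrwd1 (log2 fold change 0.28, edgeR adjusted p = 0.0182).

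Of the 5 subunits that Pol II shares with Pol I and Pol III (Polr2e, Polr2f, Polr2h, Polr2k and Polr2l), 4 rose. Polr2h had 4.25 and 6.67 CPM untreated and 10.99 and 9.76 CPM in the degron libraries, a log2 fold change of 0.95 ± 0.25 (SE, adjusted p = 0.00217 in edgeR). It is the highest change of the members that passed, and it rests on low counts and an untreated pair that differ from each other. Polr2l had 21.9 and 26.4 CPM untreated and 34.8 and 36.6 CPM in the degron libraries and rose by 0.57 ± 0.13 (SE, adjusted p = 5.41e-04 in edgeR). Polr2f had 61.4 and 52.7 CPM untreated and 81.8 and 75.7 CPM in the degron libraries and rose by 0.47 ± 0.092 (SE, adjusted p = 7.34e-05 in edgeR). In both, the lowest degron library lay above the highest untreated one. Polr2e rose by 0.38 ± 0.11 (SE, adjusted p = 0.00600 in edgeR). Polr2k, with under 6 CPM in each library, had a log2 fold change of 0.77 ± 0.34 (SE, adjusted p = 0.0696 in edgeR). Polr2k, Tcea1 and Supt4a have annotated processed pseudogenes elsewhere, so their uniquely mapped reads may be a part of the total.

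Polr2g, which with Polr2d forms the stalk of the enzyme, rose by 0.33 ± 0.12 (SE, adjusted p = 0.0289 in edgeR). Polr2d had a value of 0.16 ± 0.12 (SE, adjusted p = 0.289 in edgeR), which turned below 0 with length-adjusted scaling. Polr2m, whose product (Gdown1) binds Pol II and makes it depend on Mediator, rose by 0.37 ± 0.12 (SE, adjusted p = 0.0122 in edgeR). Polr2i, at 4.76 to 7.53 CPM, had 0.27 ± 0.29 (SE, adjusted p = 0.488 in edgeR). Without untreated replicate 1, edgeR no longer called Polr2h (log2 fold change 0.66, adjusted p = 0.0945), Polr2e (0.32, adjusted p = 0.0716) and Polr2m (0.25, adjusted p = 0.217). The call of Polr2g was lost without either untreated replicate or degron replicate 2, with edgeR adjusted p of 0.116, 0.0644 and 0.197. With length-adjusted scaling 4 subunits passed, Polr2c, Polr2f, Polr2h and Polr2l.

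**Figure D2:**
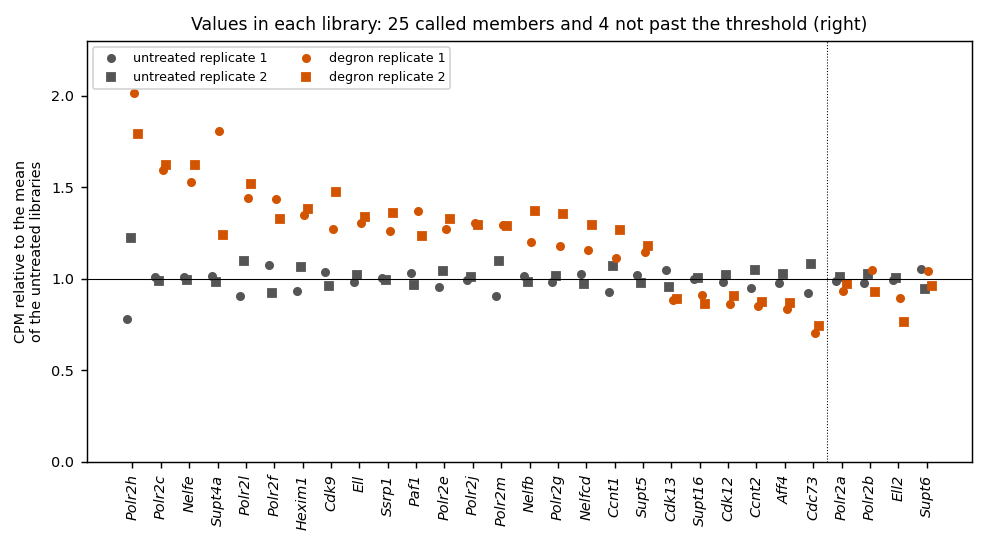
CPM in each library divided by the mean of the 2 untreated libraries (vertical axis, linear from 0), for the 25 called members and, right of the dotted line, for Polr2a, Polr2b, Ell2 and Supt6, which did not pass. Grey marks are untreated and orange marks degron libraries, and the degron marks lie above both untreated marks in the 19 members called higher and below both in the 6 called lower.

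In P-TEFb and its inhibitors, 3 of 5 genes rose and 1 fell, beside 20.3% and 19.8% of all tested genes. Cdk9, the kinase, had 61.8 and 57.2 CPM untreated and 75.7 and 87.7 CPM in the degron libraries and rose by 0.45 ± 0.092 (SE, adjusted p = 1.29e-04 in edgeR). Hexim1, which inhibits P-TEFb when bound to 7SK RNA, had 31.0 and 35.3 CPM untreated and 44.7 and 45.8 CPM in the degron libraries and rose by 0.45 ± 0.11 (SE, adjusted p = 0.00141 in edgeR). Kinase and inhibitor were thus higher together, each in both degron libraries. Hexim1 has a single exon, at 103116231 to 103119725 on chromosome 11, so its reads cannot be split into spliced and unspliced RNA. With length-adjusted scaling neither passed (0.22 and 0.22, adjusted p of 0.0620 for Cdk9 and 0.146 for Hexim1 in edgeR).

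The cyclin partners of CDK9 moved in opposite directions. Ccnt1 had 132 and 152 CPM untreated and 158 and 180.2 CPM in the degron libraries, a log2 fold change of 0.25 ± 0.072 (SE, adjusted p = 0.00502 in edgeR). Ccnt2 had 157 and 173 CPM untreated and 141 and 144 CPM in the degron libraries, a log2 fold change of -0.21 ± 0.067 (SE, adjusted p = 0.0109 in edgeR). The genes are nearly equal in length, 32.2 and 33.9 kb, and their length-adjusted values were 0.28 and -0.17 (adjusted p of 0.00276 and 0.05004 in edgeR). Their log2 ratio within a library was -0.25 and -0.19 untreated and 0.17 and 0.32 in the degron group, which lay apart. Per kb of gene body the level was 4.45 ± 0.451 for Ccnt1 and 4.91 ± 0.342 for Ccnt2 in the untreated group, and 5.30 ± 0.487 and 4.24 ± 0.0714 in the degron group (CPM per kb, SD, n = 2). Both calls depended on single libraries. Ccnt1 was lost without untreated replicate 1 (edgeR adjusted p = 0.146) or degron replicate 2 (edgeR adjusted p = 0.118), and Ccnt2 without untreated replicate 2 (edgeR adjusted p = 0.233) or degron replicate 1 (edgeR adjusted p = 0.0891). Larp7, the 7SK-binding protein, had 0.34 ± 0.21 (SE, adjusted p = 0.202 in edgeR) at 8.50 to 13.8 CPM, and the Mir302 cluster lies in it on the opposite strand.

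Of the 4 other genes of tail kinases and cyclins 0 rose and 2 fell, beside 20.3% and 19.8% of all tested genes. Cdk12 had 169 and 176 CPM untreated and 149 and 156 CPM in the degron libraries, a log2 fold change of -0.18 ± 0.065 (SE, adjusted p = 0.0265 in edgeR). Cdk13 had 142 and 129.6 CPM untreated and 120.4 and 121 CPM in the degron libraries, a change of -0.17 ± 0.071 (SE, adjusted p = 0.0480 in edgeR). CDK12 and CDK13 both pair with cyclin K and phosphorylate the tail during elongation. The libraries of the groups overlapped in the ratio of Cdk12 to Cdk13, with a difference of -0.0058 on the log2 scale. Both values lay close to the threshold and turned above 0 with length-adjusted scaling (0.030 and 0.068). Cdk12 was lost without untreated replicate 1 or 2 or degron replicate 1 (edgeR adjusted p of 0.0519, 0.178 and 0.235), and Cdk13 without untreated replicate 1 or degron replicate 1 or 2 (0.459, 0.180 and 0.125). Ccnk, cyclin K, had 0.22 ± 0.093 (SE, adjusted p = 0.0526 in edgeR), and Cdk7, the TFIIH kinase, 0.0090 ± 0.074 (SE, adjusted p = 0.937 in edgeR).

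Of the 6 genes of NELF and DSIF, 5 rose and 0 fell, beside 20.3% and 19.8% of all tested genes. Their median length was 11.7 kb, and of all tested genes of 10 to 30 kb 27.9% rose and 7.30% fell. Nelfe, the RNA-binding NELF subunit, had 20.4 and 20.0 CPM untreated and 30.8 and 32.8 CPM in the degron libraries and rose by 0.65 ± 0.14 (SE, adjusted p = 1.92e-04 in edgeR). Its untreated libraries were nearly equal, and the degron mean was 1.57 times the untreated one. Nelfb had 49.7 and 48.1 CPM untreated and 58.7 and 66.9 CPM in the degron libraries, a rise of 0.35 ± 0.10 (SE, adjusted p = 0.00388 in edgeR), and Nelfcd rose by 0.29 ± 0.083 (SE, adjusted p = 0.00493 in edgeR). Without degron replicate 2 the adjusted p in edgeR was 0.0744 for Nelfb and 0.0949 for Nelfcd. Nelfa, at 38.5 kb the longest of the NELF genes, had 159 and 160 CPM untreated and 148 and 149 CPM in the degron group, with -0.11 ± 0.066 (SE, adjusted p = 0.201 in edgeR). The log2 ratio of Nelfe to Nelfa therefore went from -2.96 and -3.00 to -2.26 and -2.18.

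DSIF is made of the products of Supt4a and Supt5. Supt5, the large subunit, had 168 and 161 CPM untreated and 188 and 194 CPM in the degron libraries and rose by 0.21 ± 0.063 (SE, adjusted p = 0.00567 in edgeR), and 16.7% of it is covered on the opposite strand by Gm44709 (log2 fold change 0.022, edgeR adjusted p = 0.971). Supt4a had 9.34 and 9.05 CPM untreated and 16.6 and 11.4 CPM in the degron libraries, a rise of 0.64 ± 0.21 (SE, adjusted p = 0.0134 in edgeR). The degron libraries of Supt4a differed widely, and its value without degron replicate 1 was 0.31 (edgeR adjusted p = 0.385) and without untreated replicate 2 0.62 (edgeR adjusted p = 0.0539). With length-adjusted scaling, Nelfe (0.41) and Supt5 (0.19) passed.

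The 5 genes of the PAF complex, which travels with Pol II and guides histone modification, were divided. Cdc73, which encodes the tumour suppressor parafibromin, had 136 and 159 CPM untreated and 104 and 109 CPM in the degron libraries. The log2 fold change was -0.47 ± 0.075 (SE, adjusted p = 2.68e-06 in edgeR), the deepest fall of the members, and both degron libraries lay well below both untreated ones. Cdc73 lies at 143598800 to 143702893 on chromosome 1, with 14.4% covered on the opposite strand, mainly by B3galt2. Its length-adjusted value was -0.21 (edgeR adjusted p = 0.0317). Paf1 rose by 0.39 ± 0.15 (SE, adjusted p = 0.0371 in edgeR), from 19.1 and 17.9 CPM to 25.3 and 22.8 CPM, and lost the call without untreated replicate 1 or 2 or degron replicate 1 (edgeR adjusted p of 0.0780, 0.168 and 0.219). Leo1 (0.20 ± 0.093), Rtf1 (-0.071 ± 0.088) and the scaffold subunit gene Ctr9 (-0.18 ± 0.10) did not pass, with edgeR adjusted p of 0.0912, 0.555 and 0.157.

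In the super elongation complex, whose AFF scaffold joins P-TEFb to ELL proteins, 1 of 4 tested genes rose and 1 fell. Among all tested genes 20.3% rose and 19.8% fell. Ell, an elongation factor that suppresses pausing, had 269 and 280 CPM untreated and 359 and 367 CPM in the degron group. It rose by 0.40 ± 0.053 (SE, adjusted p = 5.13e-08 in edgeR) and by 0.54 with length-adjusted scaling (edgeR adjusted p = 1.24e-10). Ell lies at 70539457 to 70592858 on chromosome 8, is 53.4 kb long with 5.82% exon, and no other gene overlaps it. Ell2, its paralogue, had 50.5 and 51.0 CPM untreated and 45.5 and 38.9 CPM in the degron libraries, a value of -0.26 ± 0.11 (SE, adjusted p = 0.0510 in edgeR) on the other side of 0. The log2 ratio of Ell to Ell2 was 2.41 and 2.46 untreated and 2.98 and 3.24 in the degron group. Ell2 stood close to the threshold and passed in some settings, for instance in limma voom (adjusted p = 0.0489).

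Aff4, a scaffold of the complex, had 295 and 310.2 CPM untreated and 253 and 263 CPM in the degron libraries, a log2 fold change of -0.23 ± 0.055 (SE, adjusted p = 7.56e-04 in edgeR), and its length-adjusted value was -0.033. Aff1, the other scaffold and at 163 kb the longest member, had 954 and 935 CPM untreated and 916 and 910 CPM in the degron group. Its unadjusted value was -0.049 ± 0.041 (SE, adjusted p = 0.356 in edgeR), and its length-adjusted value was 0.28 (edgeR adjusted p = 3.17e-06), so the direction of Aff1 turned with the scaling. Ell3 had a count of 0 in each of the 4 libraries, which allows up to 0.458 to 0.715 CPM for counting error only. Serinc4 covers 99.1% of Ell3 on the same strand. Of 611 protein-coding genes with at least 99% of such cover, 84.8% had no count, so Ell3 is not read as silent.

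The FACT subunits differed in direction. Ssrp1 had 74.1 and 73.4 CPM untreated and 93.1 and 100.3 CPM in the degron libraries and rose by 0.39 ± 0.082 (SE, adjusted p = 2.08e-04 in edgeR). Supt16 had 132 and 133 CPM untreated and 120.2 and 114 CPM in the degron libraries, a log2 fold change of -0.17 ± 0.071 (SE, adjusted p = 0.0475 in edgeR). Supt16 lost its call when any 1 of the 4 libraries was left out (edgeR adjusted p of 0.0760 to 0.262), so only the rise of Ssrp1 held with each library left out. The log2 ratio of Ssrp1 to Supt16 was -0.83 and -0.85 untreated and -0.37 and -0.18 in the degron group. Supt6, encoding SPT6, had 148 and 133 CPM untreated and 146 and 135 CPM in the degron libraries, a log2 fold change of 0.0050 ± 0.071 (SE, adjusted p = 0.964 in edgeR). Tcea1, the TFIIS factor that rescues backtracked polymerase, had 0.15 ± 0.18 (SE, adjusted p = 0.537 in edgeR), and 72.2% of it is covered on the same strand by Gm37988, so its level is uncertain.

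Ratios between partner genes of one complex are given as a description in the plot of partner ratios. The 10 ratios were chosen after the members' values were seen, and several set a member that rose against one that did not, so that they had to lie apart. The groups were apart in 8, and those of Polr2a to Polr2b and of Cdk12 to Cdk13 overlapped. In Polr2c over Polr2a the difference was 0.76, in Nelfe over Nelfa 0.76, in Ell over Ell2 0.67, in Ssrp1 over Supt16 0.57 and in Ccnt1 over Ccnt2 0.46. With length-adjusted values these differences were 0.67, 0.46, 0.61, 0.34 and 0.45. The replicates of 1 group differed by at most 0.26 in the 5 unadjusted ratios. The other ratios that lay apart were Paf1 over Cdc73 (0.84), Polr2l over Polr2a (0.64) and Aff1 over Aff4 (0.18). Their length-adjusted differences were 0.37, 0.43 and 0.31, and the untreated replicates of Paf1 over Cdc73 differed by 0.33. A two-sided exact permutation test of 2 against 2 libraries cannot go below p = 0.333. It gives this value whenever the groups lie apart, so for the 8 ratios it only restates that they do.

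**Figure D3:**
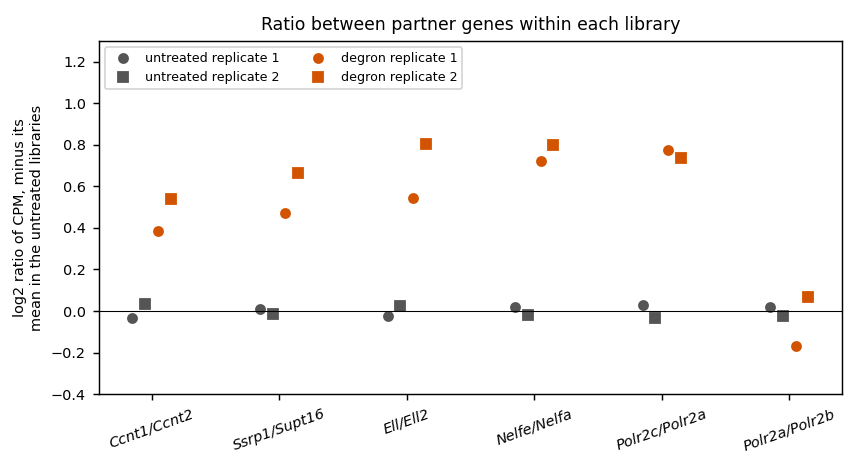
Log2 ratio of the CPM of 2 partner genes in each library, minus its mean over the untreated libraries (vertical axis), for 6 pairs. Grey marks are untreated and orange marks degron libraries, and in the first 5 pairs the degron marks lie between 0.38 and 0.81 while for Polr2a over Polr2b they straddle 0.

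Levels were compared between members as CPM per kb of counted gene body. In untreated cells Polr2a stood highest at 10.9 ± 0.159 CPM per kb (SD, n = 2), next to Hexim1 at 10.4 ± 0.941 and Polr2e at 9.84 ± 0.619, and in this order each differed from the next by less than the spread of Hexim1. Cdk9 (8.51 ± 0.468), Polr2l (8.13 ± 1.09) and Ssrp1 (7.70 ± 0.0548) came next. Polr2b stood at 1.80 ± 0.0648. Within the super elongation complex, Aff1 (5.81 ± 0.0802), Ell (5.18 ± 0.148) and Aff4 (4.28 ± 0.156) stood above Ell2 (0.777 ± 0.00474). Lowest of the members with counts were Larp7 (0.610 ± 0.127) and Tcea1 (0.324 ± 0.00961). The rank of Tcea1 is uncertain, since Gm37988 covers 72.2% of it on the same strand. Members also differ in exon share, such as 5.82% in Ell and 100% in Hexim1, and the part of this in the levels was not tested.

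**Figure D4:**
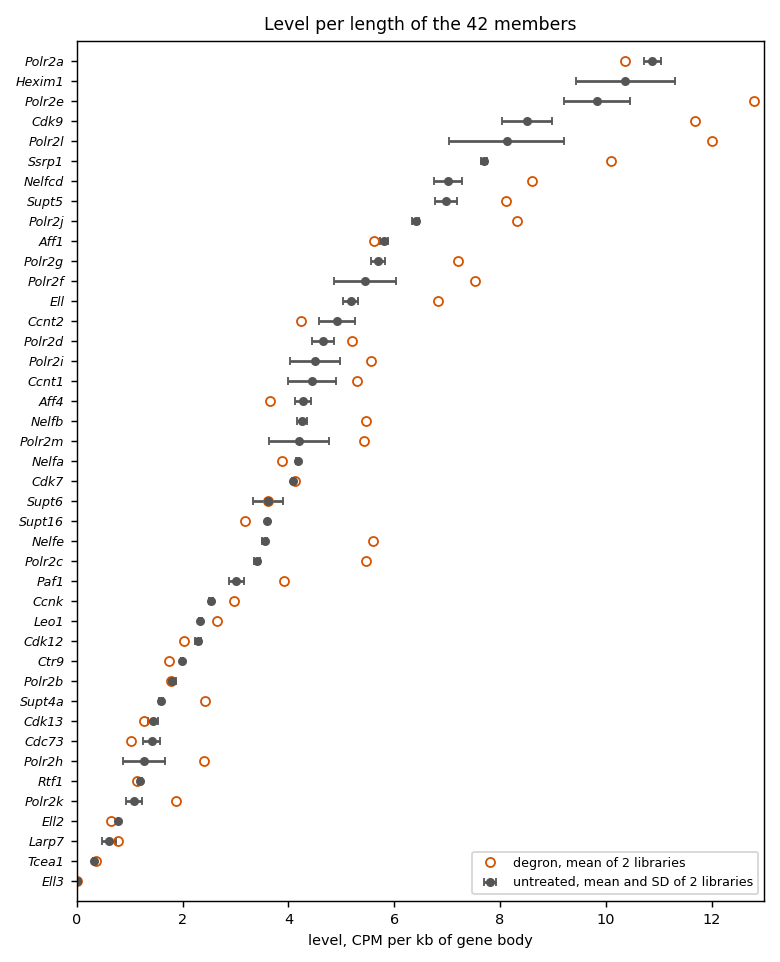
Level of the 42 members in CPM per kb of gene body (horizontal axis, linear from 0), ordered by the untreated mean. Filled points are the untreated mean with 1 SD over 2 libraries and open circles the degron mean, which for Polr2e, Cdk9 and Polr2l lies above the untreated range while Polr2a stays near its untreated value. Ell3 is listed at 0, and the degron circle of Hexim1 (14.2 CPM per kb) lies beyond the plotted range.

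The direction of a member went with the length of its gene. Of 15 members under 10 kb, 12 rose and 0 fell, with a median log2 fold change of 0.39. The 11 members of 10 to 30 kb had 5 higher and 0 lower (median 0.22), the 8 members of 30 to 60 kb had 2 and 2 (median -0.0013), and the 7 members over 60 kb had 0 and 4 (median -0.18). The same order held over all tested genes. There 29.0% rose and 2.71% fell under 10 kb (median 0.25), 27.9% and 7.30% from 10 to 30 kb (0.11), 15.7% and 20.7% from 30 to 60 kb (-0.075), and 5.70% and 52.1% over 60 kb (-0.28). Among genes with a mean of at least 50 counts, 11 of 12 members under 10 kb rose against 47.2% of such genes. The Spearman correlation of change and length was -0.79 across the 41 members and -0.47 across all tested genes. Genes are not independent replicates and share their libraries, so no p is given. Short members also had a larger share of exon (Spearman correlation of length and exon share -0.67, of change and exon share 0.46). The part of gene length or exon share in a member's change was not tested.

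**Figure D5:**
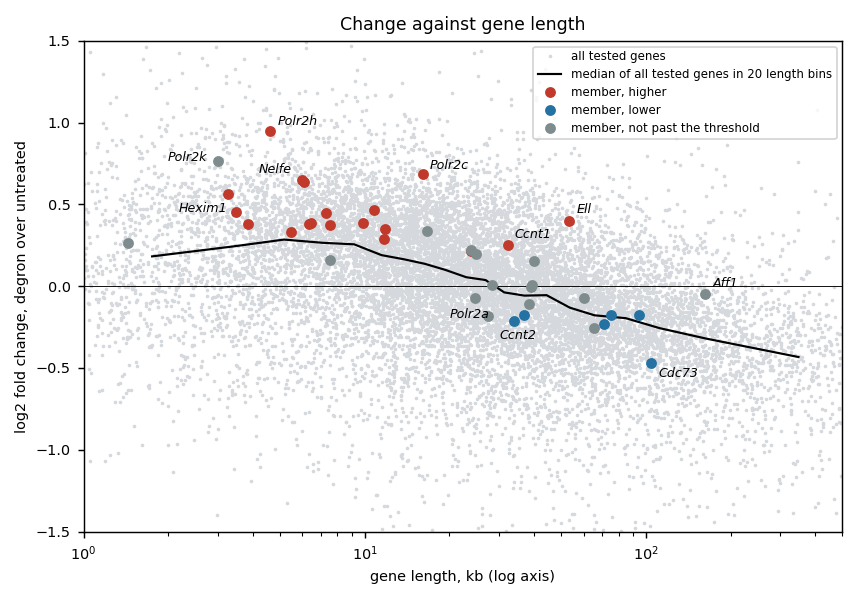
Log2 fold change of degron over untreated (vertical axis) against gene length in kb (horizontal, log axis). Small grey dots are all tested genes (274 lie outside the plotted range), the black line is their median in 20 length bins, and larger dots are members coloured by call, with Ell, Ccnt1 and Polr2c above the line and Cdc73 below it.

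With the length-adjusted scaling, 10 members were higher, 1 lower and 30 did not pass, with a median of 0.16. Over all genes 2569 were then higher and 1419 lower, against 2921 and 2845 without it, with a median of 0.026. The curve is fitted on all genes, and among the members a trend on length remained, with a Spearman correlation of -0.46. The members that passed were Polr2c, Polr2f, Polr2h, Polr2l, Ccnt1, Nelfe, Supt5, Ell, Ssrp1 and, in the other sense from its unadjusted value, Aff1 among the higher, and Cdc73 as the lower one. The calls of Polr2c, Polr2f, Nelfe, Ell and Cdc73 held in each alternative tried. DESeq2's Wald test called 8 of 41 tested members higher and 2 lower, against 10.7% and 10.1% of all 14361 tested genes. It gave no adjusted p for 27.1% of these genes and, among the members, for Polr2h, Polr2i and Polr2k, and such genes count as not called.

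Factors that act beside the members were read from 4 related lists of 44 tested genes, of which 12 (27.3%) rose and 14 (31.8%) fell, beside 20.3% and 19.8% of all tested genes (median log2 fold change 0.034). With length-adjusted scaling 18 of these 26 kept their call and direction, and 14 did with each library left out. Of 8 general initiation factor genes 1 rose and 4 fell. Gtf2f1, of TFIIF, rose by 0.34 ± 0.11 (SE, adjusted p = 0.00923 in edgeR) while Gtf2f2, its partner subunit, had -0.19 ± 0.064 (SE, adjusted p = 0.0133 in edgeR). Both TFIIE genes fell, Gtf2e1 by 0.33 ± 0.10 on the log2 scale (SE, adjusted p = 0.00451 in edgeR) and Gtf2e2 by 0.41 ± 0.069 on the log2 scale (SE, adjusted p = 5.08e-06 in edgeR), as did Gtf2a1 (-0.29 ± 0.087). With length-adjusted scaling Gtf2f1 and Gtf2f2 were both above 0 and neither passed (0.13 and 0.076, edgeR adjusted p of 0.393 and 0.403). The call of Gtf2f1 was lost without untreated replicate 1 (edgeR adjusted p = 0.121), that of Gtf2f2 without untreated replicate 2 or degron replicate 2 (0.111 and 0.0790), that of Gtf2a1 without untreated replicate 2 (0.101) and that of Gtf2e1 without degron replicate 1 (0.1296).

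Of the 9 TFIIH genes other than Cdk7, 3 rose and 2 fell, beside 20.3% and 19.8% of all tested genes. The helicase genes Ercc2 (0.32 ± 0.086) and Ercc3 (0.36 ± 0.090) and the core subunit gene Gtf2h3 (0.63 ± 0.095) rose, with edgeR adjusted p of 0.00224, 0.00149 and 7.64e-07. Ercc2 is 85.9% covered on the opposite strand by Gm26852 and Klc3, so its reads may not be fully separated from theirs. Gtf2h2 (-0.47 ± 0.12) and Mnat1 (-0.42 ± 0.062), whose product assembles CDK7 with cyclin H, fell, with edgeR adjusted p of 0.00150 and 5.99e-07. Mnat1 is 150.3 kb long, and its length-adjusted value was -0.10 (edgeR adjusted p = 0.235), so the call was lost. Ercc3 lost its call without untreated replicate 1 (edgeR adjusted p = 0.0684).

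Of 17 other elongation factor genes 4 rose and 6 fell, beside 20.3% and 19.8% of all tested genes. Mepce, the enzyme that caps 7SK RNA, had 54.4 and 56.5 CPM untreated and 84.4 and 86.3 CPM in the degron libraries and rose by 0.62 ± 0.088 (SE, adjusted p = 2.47e-07 in edgeR). Mllt1 and Mllt3 encode alternative YEATS-domain readers of the super elongation complex and moved apart. Mllt1 had 179 and 181 CPM untreated and 220.0 and 228 CPM in the degron libraries, a rise of 0.32 ± 0.060 (SE, adjusted p = 4.35e-05 in edgeR). Mllt3, 263 kb long, had 271 and 265 CPM untreated and 135 and 131 CPM in the degron libraries, a log2 fold change of -1.01 ± 0.061 (SE, adjusted p = 2.96e-17 in edgeR), with a length-adjusted value of -0.62. Aff3, a further AFF family gene, fell by 0.75 ± 0.084 on the log2 scale (SE, adjusted p = 1.40e-09 in edgeR), and at 488 kb its length-adjusted value was -0.31. Iws1, a partner of SPT6, fell by 0.37 ± 0.075 on the log2 scale (SE, adjusted p = 1.04e-04 in edgeR), and Tcea3, a TFIIS paralogue, fell by 0.51 ± 0.10 on the log2 scale (SE, adjusted p = 7.91e-05 in edgeR). The Elongin genes Elob (0.40 ± 0.13) and Eloa (0.23 ± 0.10) rose, with edgeR adjusted p of 0.0156 and 0.0489, and Tcea2 and Ice2 were the others that fell (-0.57 ± 0.20 and -0.38 ± 0.14, edgeR adjusted p of 0.0190 and 0.0344). Elob, Eloa and Ice2 did not pass with length-adjusted scaling (0.17, 0.15 and -0.33). Eloa is 40.1% covered on the opposite strand by Gm13008, so its reads may not be fully separated either. Leaving out a library ended the calls of Elob (untreated replicate 2 or degron replicate 1, edgeR adjusted p of 0.112 and 0.132), Eloa (any of the 4, 0.0588 to 0.228), Tcea2 (untreated replicate 2 or degron replicate 1, 0.175 and 0.458) and Ice2 (either untreated replicate or degron replicate 1, 0.141, 0.121 and 0.214).

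In the 10 genes for Pol II assembly and for tail phosphatases, 4 rose and 2 fell, beside 20.3% and 19.8% of all tested genes. Gpn1, a GTPase for nuclear import of Pol II, rose by 0.40 ± 0.088 (SE, adjusted p = 2.92e-04 in edgeR), and the phosphatase genes Ssu72 and Ctdp1 rose by 0.31 ± 0.067 (SE, adjusted p = 2.27e-04 in edgeR) and 0.23 ± 0.061 (SE, adjusted p = 0.00213 in edgeR). Rpap1 rose by 0.16 ± 0.067 (SE, adjusted p = 0.0465 in edgeR). Rpap2, a phosphatase of the tail, had 95.4 and 108 CPM untreated and 59.7 and 69.0 CPM in the degron libraries, a log2 fold change of -0.67 ± 0.087 (SE, adjusted p = 4.84e-08 in edgeR), and Rprd1a fell by 0.22 ± 0.075 on the log2 scale (SE, adjusted p = 0.0198 in edgeR). Rpap1 and Rprd1a did not pass with length-adjusted scaling (0.14 and -0.12). Without a library Rprd1a lost its call for any of the 4 (edgeR adjusted p of 0.0742 to 0.111), Rpap1 for untreated replicate 2 or either degron replicate (0.246, 0.190 and 0.0690) and Ctdp1 for degron replicate 2 (0.0568).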

How the data were processed

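Chromatin-associated RNA was taken as the authors deposited it, in raw counts for each gene, from 4 mouse embryonic stem cell libraries (2 untreated, 2 ZBTB21 degron at 6 h). Per the labels and the study's methods, reads were trimmed with cutadapt 2.6, mapped to mm10 and dm6 (the labels list STAR 2.7.6a, the methods name bowtie2), filtered for unique mapping and PCR duplicates, and counted with featureCounts 1.6.3 from 300 bases after the start to the end of each gene, introns included. The annotation release of the ChAR-seq counts and their strand setting were not stated. The study's RNA-seq methods name a GENCODE release later than the M21 used here for lengths and cover. With no fly spike-in counts in use a shift common to all genes cannot be seen.

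Of 36918 identifiers, 36770 matched GENCODE M21 (mm10). Genes were kept with filterByExpr (minimum count 10, minimum total 15), scaled with TMM and tested in edgeR with a two-sided quasi-likelihood F test on group, Benjamini-Hochberg over the whole table of 14361 genes, with 0.05 as threshold. The SE is the log2 fold change divided by the root of F. A count of 0 allows 3 counts. Level per length divides CPM by the gene length less 300 bases. By chi-square (1.30 and 1.39 per degree of freedom), replicates differed by more than sampling noise and were kept separate. Length-adjusted values take as offset a least-squares loess curve on log10 gene length, with span 0.3, over 14351 genes. The fit was tested on simulated data with a fixed dispersion and a straight trend on log length. Those settings are simpler than these data, so that test does not show that single calls here are right. Tests ran in R 4.3.3 with limma 3.58.1, DESeq2 1.42.0 and edgeR 4.0.16.

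Members and lists were chosen with earlier results of these data known. Per-library values were set for the 6 largest changes in each direction among called members and for Polr2a, Polr2b, Cdk9, Ccnt1, Hexim1, Supt5, Supt6, Ell2, Aff4 and Nelfb, and up to 4 genes per direction with the smallest adjusted p are named of each related list. Other per-library values, Ice2, the overlapping genes, the 10 partner ratios and the 5 printed windows were chosen after values were seen. Alternatives were limma voom, DESeq2's Wald test, a replicate block, each library left out, total counts, DESeq2 size factors, length-adjusted scaling, protein-coding genes, a minimum mean of 50 counts, no filter and leaving out the 20 most abundant genes. A robust loess curve was chosen after seeing the data.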

Additional observations from a re-analysis of the deposited data

How the results depend on the processing

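The count of members past the threshold was 25. It was 11 with length-adjusted scaling (10 higher, 1 lower), 9 with the robust curve chosen after seeing the data (7 higher, 2 lower) and 10 with DESeq2's Wald test (8 higher, 2 lower), which left 27.1% of genes without an adjusted p. Without any filter 3 were lower. Leaving out each library gave 16 to 21 members, with 3 to 4 lower. The lowest, 16, came without untreated replicate 1, and 3 lower came without either untreated replicate or degron replicate 1. The members' median log2 fold change of 0.25 became 0.16 and 0.12 with the length-adjusted curves and 0.20 at a mean of at least 50 counts, and was 0.21 to 0.31 with each library left out. Over all genes DESeq2's Wald test called 2996 (1540 higher, 1456 lower), and the length-adjusted curves called 1419 and 1690 lower. Of the 26 related genes called, DESeq2's Wald test gave 16 (8 lower), and 9 to 12 were lower with each library left out, 9 without untreated replicate 2. Directions turned for Polr2b (0.018 with total counts, 0.056 and 0.037 length-adjusted, 0.029 without a filter, -0.10 to 0.074 with a library left out), Polr2d (-0.058 and -0.10 length-adjusted), Cdk7 (-0.0091 robust, -0.0079 at a mean of at least 50 counts, -0.033 to 0.069 with a library left out) and Supt6 (-0.012 at a mean of at least 50 counts, -0.061 to 0.099 with a library left out). They turned with the 2 length-adjusted curves for Cdk12 (0.030 and 0.0040), Cdk13 (0.068 and 0.042), Rtf1 (0.099 and 0.069) and Aff1 (0.28 and 0.26). The causes were not tested. With the replicate block 25 called members kept their call and 2 more passed, and 6174 of all genes passed against 5766. Both groups number replicates 1 and 2, and deviations of same-numbered libraries correlated by 0.024. What the number stands for is not stated, and with 2 libraries a group this value cannot show if same-numbered libraries share a batch. Depth limits Polr2h, Polr2i, Polr2k, Larp7 and Supt4a.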
